A study of Rattus norvegicus with 6 samples.

Results

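The fibroblast growth factor (FGF) family was examined in rat myocardium as 10 genes, made up of 6 ligands (Fgf1, Fgf2, Fgf7, Fgf16, Fgf21 and Fgf23) and 4 receptors (Fgfr1, Fgfr2, Fgfr3 and Fgfr4), out of 32623 genes in the deposited table. The family was chosen by the Fgf23 counts in these same libraries, which were 0 in sham and between 209 and 2560 in ischemia, so they are given as a description, and no test of Fgf23 is reported. RNA sequencing compared myocardial tissue of male wild-type rats after a sham operation (3 libraries) with tissue after ischemia (3 libraries), in which the left anterior descending coronary artery was tied off and elevation of the ST segment was seen on the electrocardiogram. Anesthesia, ventilation and a left thoracotomy are described for the rats, and both groups carry a 30 min label. The strain, the age, the part of the heart sampled and whether each library came from 1 rat are not given in the sources used here, so p-values measure the spread between these libraries.

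FGF ligands signal through receptor tyrosine kinases that switch on the RAS, RAF and ERK kinase cascade, and most of them act near the cell that releases them because they bind heparan sulfate. Fgf21 and Fgf23 instead circulate as hormones and need a klotho protein beside the receptor. Fgf23 is known as a bone-made hormone that lowers blood phosphate and active vitamin D, while Fgf1 and Fgf2 are known in the heart for effects on vessel growth and on the survival of cardiomyocytes.

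Each library held between 68529126 and 79591989 counts, and 3 counts, taken as the detection floor, were worth 0.0377 to 0.0438 CPM (counts scaled to library size). Of the 32623 genes, 13964 passed a mean of 0.5 FPKM (fragments scaled to transcript length and library size) and entered the fit. Fgf21 did not pass. Fgf23 and Fgf2 passed only through the ischemia libraries, and Fgfr2 and Fgfr4 only through the sham libraries. For such genes the fit without a filter, over 20541 genes of which 2.85% were called, is the one given, except that no test of Fgf23 is reported. Values with a library left out come from fits with the filter throughout. Over the tested genes 6.71% were called different between ischemia and sham at an adjusted p of 0.05 by edgeR's quasi-likelihood test, 5.18% higher and 1.53% lower, and 38.6% had groups that did not overlap. An unadjusted p under 0.05 was reached by 32.4%, and DESeq2 called 27.3%.

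Several libraries stood apart. The Y-linked genes Eif2s3y and Kdm5d, expected in males, had 4 counts together in sham replicate 1 and 1762 to 4310 in the other 5 libraries, which goes against the male label of that library. Markers of atrial myocardium summed to 215 FPKM in sham replicate 2 and to 48341 and 39203 FPKM in the other sham libraries, against 1279 to 9610 FPKM in ischemia. Neutrophil markers summed to 7.43 to 18.3 FPKM in sham and to 472 to 3595 FPKM in ischemia, with the top value in ischemia replicate 2. Cardiomyocyte markers were abundant in every library, at 25102 to 42188 FPKM in sham and 12582 to 24500 FPKM in ischemia. No gene passed when sham replicate 1, 2 or 3 or ischemia replicate 3 was left out, although 3020 to 3809 genes then had an unadjusted p under 0.05.

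Fgf23 was absent from the counts of every sham library and present in every ischemia library. Ischemia replicates 1, 2 and 3 held 462, 2560 and 209 counts, which is 5.80, 35.4 and 3.05 CPM or 7.41, 45.1 and 3.89 FPKM. The ischemia libraries therefore differed by about an order of magnitude among themselves, and the mean of 18.8 FPKM was smaller than its SD of 22.9 (n = 3). Against the floor of 3 counts per sham library, Fgf23 was at least 143-fold higher in ischemia replicate 1, at least 873-fold higher in replicate 2 and at least 75.2-fold higher in replicate 3. The mean of the 3 ischemia libraries was at least 364-fold higher and that without ischemia replicate 2 at least 109-fold higher, since replicate 2 held 80.0% of the summed ischemia CPM. Leaving out sham replicate 1 does not alter the absence, because the other sham libraries also had 0 counts.

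In level, Fgf23 in ischemia replicates 1, 2 and 3 exceeded 53.9%, 87.3% and 39.2% of the tested genes, so it was of middle abundance in replicates 1 and 3.

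Fgf23 spans bases 159622404 to 159630082 of chromosome 4 (plus strand) in the coordinates of the deposited file, whose genome build is not given in the sources used here, and overlaps no other annotated gene. Tigar, a regulator of glycolysis on the minus strand whose nearer end lies 5070 bases past Fgf23, had 2684, 3308 and 2366 counts in sham and 2664, 1617 and 1625 in ischemia. Ccnd2, a G1 cyclin 44802 bases away, had 2208, 2138 and 1747 counts in sham and 1588, 1743 and 1563 in ischemia. The family member Fgf6, 50070 bases to the other side, had 9, 4 and 14 counts in sham and 7, 0 and 0 in ischemia. On its far side RGD1311164 had 527 to 722 counts in sham and 565 to 719 in ischemia. None of these neighbours had the absence in sham and presence in ischemia seen at Fgf23.

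**Figure D1:**
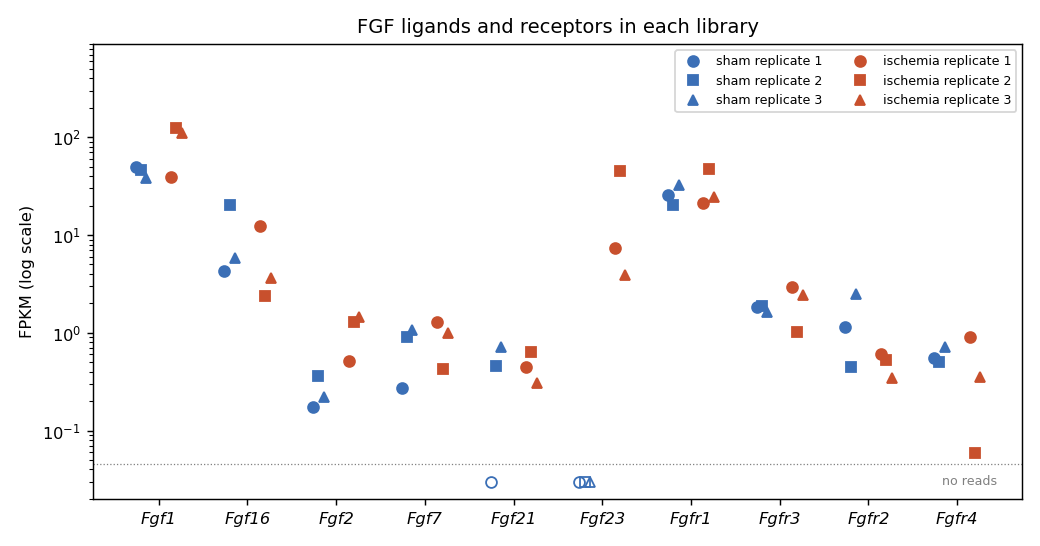
Level of each FGF ligand and receptor in each library, in FPKM on a log axis, with blue points for the 3 sham and red points for the 3 ischemia libraries and hollow points at the bottom for libraries with no reads. Fgf23 has hollow points in all 3 sham libraries and points from 3.89 to 45.1 FPKM in ischemia, while the groups of the other members overlap except for Fgf2.

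The paracrine ligand Fgf1, which can bind all FGF receptors, was the most abundant member in both groups. Its levels were 49.2, 46.1 and 38.6 FPKM in sham and 39.6, 125 and 111 FPKM in ischemia. Ischemia replicates 2 and 3 lay above every sham library and replicate 1 lay within the sham range. The group means were 44.6 ± 5.47 and 91.8 ± 45.7 FPKM (SD, n = 3 each), with a log2 fold change of 0.93 ± 0.44 (SE) that did not pass the test (adjusted p = 0.189). Without ischemia replicate 1 it passed, at 1.28 with an adjusted p of 0.030, and without sham replicate 1 it was 0.95 (adjusted p = 0.328). Its locus spans bases 32273770 to 32359824 of chromosome 18.

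Fgf2, or basic FGF, was the only member besides Fgf23 whose groups did not overlap. It was expressed at a low level, with 17, 38 and 21 counts in sham and 54, 124 and 132 in ischemia, or 0.253 ± 0.099 against 1.09 ± 0.51 FPKM. The lowest ischemia library was above the highest sham library, as it was for 23.6% of all tested genes in that direction. The log2 fold change of 1.95 ± 0.67 in the fit without a filter had an unadjusted p of 0.023 and an adjusted p of 0.145, and so was not called. It was 1.69 without sham replicate 1. Fgf2 spans bases 124081072 to 124134681 of chromosome 2 (plus strand) and overlaps Nudt6, known as its antisense gene, on the other strand. Nudt6 had 154, 327 and 264 counts in sham and 332, 234 and 279 in ischemia. The library kit kept strand, but the strand setting of the counting is not given in the sources used here, so reads of the 2 genes may not be fully separated.

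Fgf7, the keratinocyte growth factor made by connective tissue cells, and Fgf16, known from cardiomyocytes, did not separate the groups. Fgf7 had 15, 51 and 54 counts in sham and 74, 22 and 50 in ischemia, with a log2 fold change of 0.18 ± 0.70 (adjusted p = 0.872) that turned to -0.23 without sham replicate 1. Fam227b, which overlaps Fgf7 on the other strand, had 47 to 79 counts in sham and 9 to 92 in ischemia. Fgf16 had 4.32, 20.4 and 5.78 FPKM in sham and 12.4, 2.37 and 3.66 FPKM in ischemia. Its highest library was sham replicate 2, the sham library with the low atrial markers, and its log2 fold change of -0.91 ± 0.90 (adjusted p = 0.501) turned to 0.32 without that library. Whether the makeup of that library has a part in the Fgf16 value was not tested.

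Fgf21, the metabolic hormone of the family, stayed at a handful of counts. It had 0, 24 and 33 counts in sham and 24, 31 and 14 in ischemia, at or below 0.719 FPKM in every library. In a fit without the filter its log2 fold change was 0.15 ± 1.39 (adjusted p = 0.959), an error wide enough that a change of several fold could go undetected. Of a list of Fgf21 regulators, 10 genes were tested and none was called (6 had an unadjusted p under 0.05, beside 32.4% of all tested genes, and DESeq2 called 5, beside 27.3%), with a median log2 fold change of 0.55 against -0.0015 over all tested genes. Atf4, the stress factor known to activate Fgf21, had 12502, 11467 and 12748 counts in sham and 19772, 57919 and 35639 in ischemia. Those groups did not overlap, and the log2 fold change of 1.55 ± 0.40 had an adjusted p of 0.063 (0.014 without ischemia replicate 1, at 1.87). Mlx, the partner of the carbohydrate-responsive factor, had a log2 fold change of 0.57 (adjusted p = 0.069).

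The Fgf21 promoter is shown because it holds the letters to which Atf4 is known to bind, while its own counts stayed low. The 250 bases before the Fgf21 start, from RefSeq (GRCr8, chr1:105221377-105221626, minus strand, printed 5′ to 3′ along the gene), carry in capitals the reverse complement of the amino acid response core TGATGNAA, which begins 143 bases before the start.
Fgf21: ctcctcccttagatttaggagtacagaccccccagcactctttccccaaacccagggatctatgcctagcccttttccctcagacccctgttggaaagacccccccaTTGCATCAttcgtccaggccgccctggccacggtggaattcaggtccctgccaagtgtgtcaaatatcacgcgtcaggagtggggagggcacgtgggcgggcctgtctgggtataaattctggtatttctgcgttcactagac
That core was found on either strand in 3.40% of 33469 promoter windows of the same length. Among the 8 of 10 members that had an entry (Fgf23 and Fgfr1 had none), Fgf21 alone held it. Of the other motifs searched on both strands, Fgf21 and Fgf2 each held the hypoxia response core ACGTG, present in 16.6% of all windows, and the cyclic AMP half-site TGACG, present in 18.2%. The AP-1 site TGANTCA (6.34% of windows) and the heat shock unit GAANNTTC (7.23%) were in none of the 8. A match describes letters in these windows and not binding.

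Fgfr1 made up most of the receptor RNA. Its levels were 25.9, 20.1 and 32.5 FPKM in sham and 21.3, 46.9 and 24.7 FPKM in ischemia, so ischemia replicate 2 was highest and the other ischemia libraries lay within the sham range. The means were 26.2 ± 6.24 and 31.0 ± 13.9 FPKM, with a log2 fold change of 0.15 ± 0.30 (adjusted p = 0.742) that turned to -0.21 without ischemia replicate 2. Fgfr1 took 88.0, 87.7 and 87.0% of the summed FPKM of the 4 receptors in sham and 82.6, 96.7 and 88.7% in ischemia. The difference of 1.75 percentage points was within the spread (two-sided exact permutation test, p = 0.7, where 0.1 is the smallest p that 3 against 3 allows), and it was -1.92 without ischemia replicate 2. The summed receptor level ran from 22.9 to 37.4 FPKM in sham and from 25.8 to 48.5 FPKM in ischemia. Fgfr1 spans bases 71266248 to 71319449 of chromosome 16 (minus strand). A small gene on its other strand, AABR07026305, had 6 to 23 counts in a library.

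The epithelial-type receptor Fgfr2 was the receptor with the largest fitted change. It had 415, 174 and 872 counts in sham and 239, 190 and 117 in ischemia, and the groups overlapped because sham replicate 2 lay within the ischemia range. The log2 fold change was -1.47 ± 0.56 in the fit without a filter, with an unadjusted p of 0.035 and an adjusted p of 0.174. Fgfr2 spans bases 200590953 to 200696928 of chromosome 1 (minus strand). Its change was -1.62 without sham replicate 1 and -0.78 without sham replicate 3, its highest library. Markers of fibroblasts summed to 698 to 2247 FPKM in sham and 271 to 706 FPKM in ischemia (0 of 6 called, all 6 with a log2 fold change below 0), and mesothelial markers to 40.9 to 87.1 and 5.05 to 29.8 FPKM (0 of 4 called). Their part in the Fgfr2 value was not tested, and in these bulk samples fewer cells of a type and less RNA per cell cannot be told apart.

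Fgfr3 and Fgfr4 were minor receptors in both groups. Fgfr3 had 507, 541 and 421 counts in sham and 877, 276 and 627 in ischemia (log2 fold change 0.20 ± 0.45, adjusted p = 0.778). Fgfr4, the receptor known for bile acid control in liver, had 141, 136 and 177 counts in sham and 250, 15 and 84 in ischemia (log2 fold change -0.46 ± 0.86, adjusted p = 0.759, no filter). For both, ischemia replicate 1 was the highest of all 6 libraries and replicate 2 the lowest. The Fgfr3 value turned to -0.11 without ischemia replicate 1 and the Fgfr4 value to 0.040 without ischemia replicate 2.

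**Figure D2:**
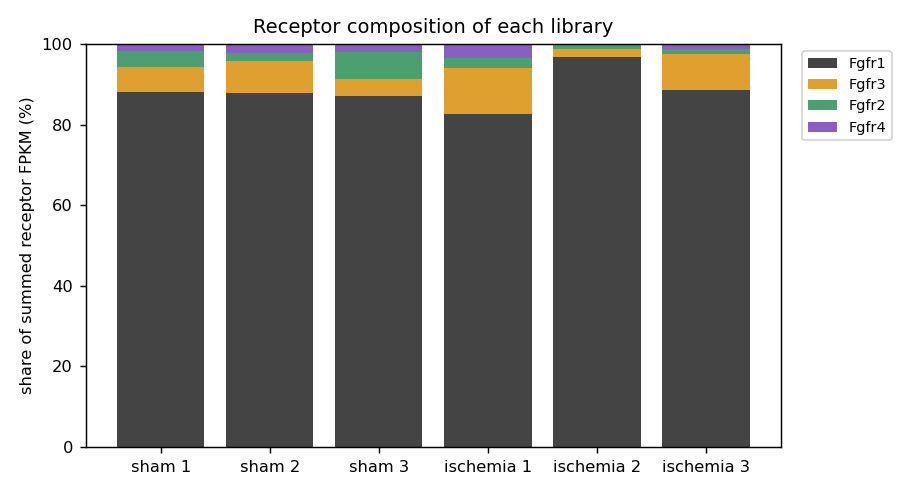
Share of the summed receptor FPKM taken by Fgfr1, Fgfr2, Fgfr3 and Fgfr4 in each library, in percent, with 1 stacked bar per library starting at 0. Fgfr1 takes 82.6 to 96.7% of every bar, and the bar of ischemia replicate 2 has the largest Fgfr1 share.

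Of the 9 members other than Fgf23 in the fit without a filter, none was called, and 2 had an unadjusted p under 0.05, Fgf2 and Fgfr2, beside 24.4% of the genes in that fit. Among the 13964 genes past the filter, where the members enter partly through their high group, DESeq2 called 14.8% higher and 12.5% lower, Fgf2 and Fgfr2 among them. A log2 fold change beyond 2 with edgeR's p under 0.01, the study's cut, was passed by 3.31% upward and 1.34% downward and by 0 members other than Fgf23. In sham the order of mean FPKM per gene was Fgf1, Fgfr1, Fgf16, Fgfr3, Fgfr2, Fgf7, Fgfr4, Fgf21, Fgf2 and Fgf23. Of these neighbours Fgf1 and Fgfr1, Fgf16 and Fgfr3, and Fgf2 and Fgf23 did not overlap, and the ranges of all other neighbours did. In ischemia Fgf23 stood after Fgf1 and Fgfr1 and before Fgf16, Fgfr3, Fgf2, Fgf7, Fgfr2, Fgf21 and Fgfr4, and every pair of neighbours overlapped. Fgf23 took 12.0, 25.9 and 3.21% of the summed ligand FPKM in ischemia replicates 1, 2 and 3. Among the ligands without Fgf23, Fgf1 took 91.1, 67.6 and 83.2% in sham and 73.0, 96.3 and 94.5% in ischemia (difference 7.29 percentage points, exact permutation test, p = 0.5). The Fgf1 difference was 12.5 points without sham replicate 1 and ran from 0.767 without sham replicate 2 to 14.8 without ischemia replicate 1, and on summed counts it was 3.24.

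The rest of the family was largely silent or low in this tissue. Of 12 other ligands with an entry, 4 were tested and none was called by edgeR (6.71% over all tested genes), 1 by DESeq2 (27.3% over all), and 1 had an unadjusted p under 0.05 (32.4% over all), with Fgf3, Fgf4, Fgf8 and Fgf20 at 0 counts in every library. Fgf10, a mesenchymal ligand of Fgfr2, had 446, 261 and 494 counts in sham and 199, 78 and 45 in ischemia. All ischemia libraries were below all sham libraries, as for 15% of tested genes, and the log2 fold change of -1.99 ± 0.56 had an adjusted p of 0.097 in the fit without a filter, since it passed only through the sham libraries. In the fits past the filter it was called by DESeq2 (adjusted p = 0.0039) and by edgeR without ischemia replicate 1 (-2.75, adjusted p = 0.021). Those calls are a description only, because Fgf10 entered these fits through its high group. Fgf9 had a log2 fold change of -0.62 (adjusted p = 0.625, no filter). Fgf10 and Fgfr2 both had lower means in ischemia, beside the fibroblast and mesothelial markers given above, whose part was not tested.

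The intracellular FGF homologous factors are not secreted and are known to bind sodium channels. Of 4 with an entry, 2 were tested and none was called by edgeR (6.71% over all tested genes), while DESeq2 called Fgf12 (27.3% over all). Fgf12 had 6073, 1041 and 2900 counts in sham and 1329, 914 and 526 in ischemia, a log2 fold change of -1.92 (adjusted p = 0.093) that was -1.22 without sham replicate 1. Within sham it was lowest in replicate 2, where the atrial markers were also lowest, and the part of atrial tissue was not tested. Fgf13 had 8.21, 7.62 and 7.69 FPKM in sham and 6.56, 1.48 and 3.44 FPKM in ischemia, without overlap, and a log2 fold change of -1.10 (adjusted p = 0.199), which was -0.70 without ischemia replicate 2 and -1.74 without ischemia replicate 1.

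Of 11 co-receptors and binding proteins measured, 8 were tested, and edgeR called 0 (6.71% over all tested genes) and DESeq2 called 1 (27.3% over all). An unadjusted p under 0.05 was found for 1 (32.4% over all). Kl, the klotho that Fgf23 needs for high-affinity signalling, had 0, 13 and 0 counts in sham and 24, 0 and 10 in ischemia, under the filter in both groups. Ncam1, a neural adhesion molecule that also binds Fgfr1, had 6.04, 3.07 and 4.13 FPKM in sham and 9.79, 13.8 and 28.4 FPKM in ischemia. Its groups did not overlap, and its log2 fold change of 1.93 ± 0.46 had an adjusted p of 0.055, with DESeq2 calling it. It was 1.30 without ischemia replicate 3 and passed without ischemia replicate 1, at 2.21 (adjusted p = 0.028). Flrt2, a membrane protein that binds FGF receptors, had a log2 fold change of 0.72 (adjusted p = 0.157). Of 29 tested genes of the receptor cascade itself none was called by edgeR and 7 by DESeq2 (27.3% over all tested genes), and 8 had an unadjusted p under 0.05 (32.4% over all), with a median log2 fold change of -0.16. Nras, a RAS protein, and Pik3r1, a regulatory subunit of phosphoinositide 3-kinase, had the smallest p of that list, at log2 fold changes of 1.25 and 1.15 with adjusted p of 0.059 and 0.087. Without ischemia replicate 1 Nras passed (1.47, adjusted p = 0.024) and Pik3r1 was at 0.66.

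Genes that ERK signalling is known to switch on, and the feedback inhibitors among them, included the genes of the pathway with log2 fold changes above 4. Of 16 tested, 4 rose, none fell and 7 had all ischemia libraries above all sham libraries, beside 5.18% called higher and 23.6% without overlap in that direction over all tested genes. Their median log2 fold change was 1.25. Of the 4, Spred3 and Etv4 had a sham mean under the filter and entered only through ischemia. The counts over the 16 are therefore partly set by the filter. The fit without a filter also called 4 genes of the list, beside 2.85% of its genes. The list was chosen with earlier results of these data known. Myc had 2.43, 1.89 and 2.87 FPKM in sham and 29.8, 74.6 and 46.3 FPKM in ischemia, a log2 fold change of 4.29 ± 0.35 (adjusted p = 0.025). Fosl1, an AP-1 subunit, had 0.878, 0.773 and 0.750 FPKM in sham and 3.65, 44.0 and 20.6 FPKM in ischemia (4.69 ± 0.87, adjusted p = 0.038). It missed the threshold without ischemia replicate 2, at 3.88 (adjusted p = 0.053). Limma on log2(FPKM + 1) put Fosl1 at 3.20, which also missed it (adjusted p = 0.053). Every ischemia library was above every sham library for both genes.

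Spred3, an inhibitor of the RAS to ERK step, rose from 78, 47 and 53 counts to 556, 1491 and 1012 counts. Its log2 fold change was 4.06 ± 0.46 in the fit without a filter (adjusted p = 0.029, and 0.027 with the filter). Etv4, an ETS factor that is a classical FGF target, rose from 94, 72 and 92 counts to 424, 359 and 380 counts. Its log2 fold change was 2.12 ± 0.31 in the fit without a filter (adjusted p = 0.033, and 0.029 with the filter). Both had a sham mean under the filter. The ischemia libraries were close to one another for Etv4, unlike for Fgf23. Without sham replicate 1 the 4 fold changes were 4.26 for Myc, 4.70 for Fosl1, 4.23 for Spred3 and 2.13 for Etv4, and none passed the test, as no gene did.

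The best known feedback inhibitors, named after their values were seen, did not pass the test. Dusp6, the ERK phosphatase, had 5.77, 3.57 and 6.17 FPKM in sham and 8.35, 46.2 and 18.4 FPKM in ischemia (log2 fold change 2.13, adjusted p = 0.069). Spry4 had 5.07, 3.90 and 4.22 FPKM in sham and 9.19, 21.0 and 7.95 FPKM in ischemia (1.41, adjusted p = 0.061), and Spry2 had a log2 fold change of 1.26 (adjusted p = 0.137). For these 3 genes all ischemia libraries were above all sham libraries. Etv1 had 4.31, 0.539 and 1.04 FPKM in sham and 0.541, 0.237 and 0.284 FPKM in ischemia (-2.45, adjusted p = 0.120, no filter). These genes respond to many receptors, and which ligand was active was not measured.

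**Figure D3:**
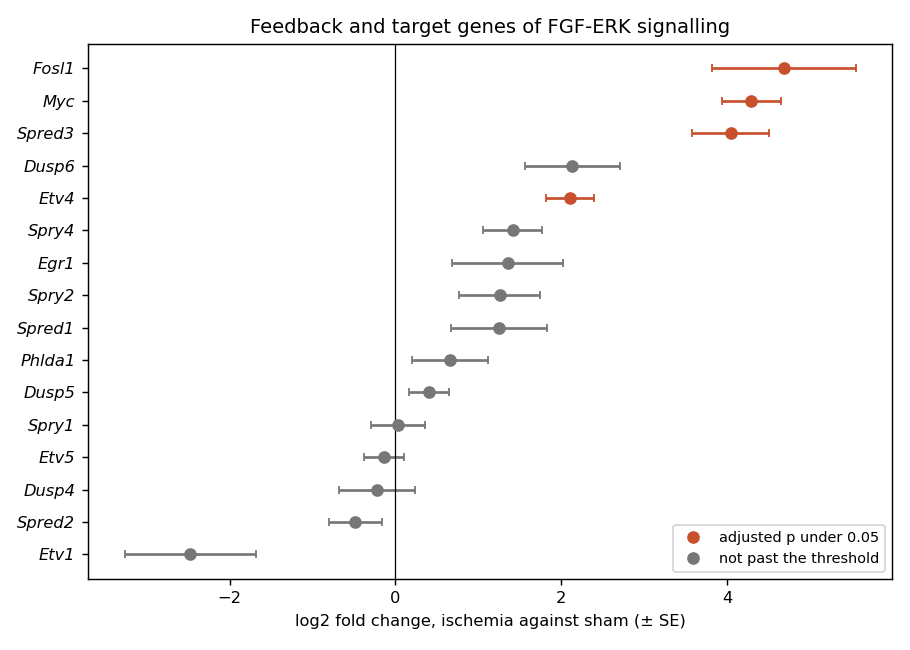
Log2 fold change (ischemia minus sham) of genes known to be induced or fed back by FGF and ERK signalling, with bars for 1 SE, red points for genes past an adjusted p of 0.05 and grey points for the others. Myc, Fosl1, Spred3 and Etv4 are red, with values from 2.10 to 4.69, and Etv1 lies lowest at -2.47, all from the fit with the filter.

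Of 19 tested genes that build or carry heparan sulfate, the chains that hold paracrine FGFs at the cell surface, 2 rose and none fell, beside 5.18% called higher over all tested genes, with a median log2 fold change of 0.074. Both were syndecans, the membrane-spanning carriers of these chains. Sdc1 rose from 598, 453 and 916 counts to 4085, 14933 and 6066 counts (log2 fold change 3.59 ± 0.55, adjusted p = 0.030). Sdc4 rose from 1478, 1125 and 1214 counts to 5559, 11516 and 5108 counts (2.45 ± 0.32, adjusted p = 0.027). The groups of both were far apart, and the fold changes were 3.50 and 2.52 without sham replicate 1. Sdc1 was at 2.96 without ischemia replicate 2. DESeq2 called 7 genes of this list, beside 27.3% of all tested genes.

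Genes of Fgf23 processing, phosphate and vitamin D handling held none that passed the edgeR test among 12 tested of 19 measured (5 had an unadjusted p under 0.05, beside 32.4% of all tested genes, and DESeq2 called 3, beside 27.3%). The median log2 fold change was 0.51. The 12 include Galnt3 and Cyp27b1, which passed the filter only through the ischemia libraries, so these counts and the median are partly set by the filter. Galnt3 had no counts in sham and 50, 602 and 42 counts in ischemia replicates 1, 2 and 3. Galnt3 adds the sugar that protects Fgf23 from cleavage. It was absent and present in the same libraries as Fgf23, at least 15.5-, 205- and 15.1-fold above the floor, and since it passed the filter only through the ischemia libraries its p is not given. As a description, 18 of the 13964 tested genes (0.129%) had 0 counts in all sham libraries and counts in all ischemia libraries, Fgf23 and Galnt3 included, and such genes can pass the filter only through ischemia. Cyp27b1, the enzyme that makes active vitamin D, had 0, 12 and 0 counts in sham and 88, 1584 and 456 in ischemia (log2 fold change 7.26 ± 1.75, adjusted p = 0.071 in the fit without a filter, since it passed only through ischemia). Over the fits that left out 1 library the change ran from 6.02 without ischemia replicate 2 to 12.4 without sham replicate 2, the sham library with its only counts. Limma on log2(FPKM + 1), which understates the change of low genes, gave 1.86. With 0.1 or 0.01 added instead, limma gave 4.34 and 6.84. DESeq2 and limma with 0.1 or 0.01 called Cyp27b1, in fits that it entered only through ischemia. All 3 ischemia libraries were above all sham libraries. Both genes were highest in ischemia replicate 2, which held 7.99 times the mean Fgf23 FPKM of the other ischemia libraries and 13.5 times their Galnt3 FPKM.

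Among signals known from other tissues to induce Fgf23, 3 of 15 tested rose, none fell and 6 had ischemia above sham without overlap, beside 5.18% called higher and 23.6% without overlap in that direction over all tested genes. In 2 genes ischemia lay below sham without overlap. The median log2 fold change was 1.01. Lcn2, an iron-binding protein of neutrophils and stressed epithelium, rose from 279, 842 and 336 counts to 69764, 9144 and 21277 counts (5.94 ± 0.99, adjusted p = 0.035). Il1b, an inflammatory cytokine, had 1.01, 1.84 and 1.64 FPKM in sham and 12.3, 88.0 and 17.4 FPKM in ischemia (4.52 ± 0.85, adjusted p = 0.040). Orai1, a store-operated calcium channel, had 13.0, 11.4 and 15.6 FPKM in sham and 23.3, 39.8 and 32.5 FPKM in ischemia (1.17 ± 0.22, adjusted p = 0.041). It missed the threshold without ischemia replicate 2, at 1.04 (adjusted p = 0.065). With scaling to total counts Orai1 was at 1.26 and also missed it (adjusted p = 0.051).

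Il1b and Orai1 were highest in ischemia replicate 2, as Fgf23 was, while Lcn2 was highest in ischemia replicate 1 and lowest in replicate 2. Il6, named after its values were seen, had 0, 8 and 7 counts in sham and 164, 10265 and 174 in ischemia, with replicate 2 at 61.7 times the mean FPKM of the others. Without sham replicate 1 the log2 fold changes were 5.63 for Lcn2, 4.27 for Il1b and 1.11 for Orai1. Il1b was at 3.23 without ischemia replicate 2, and Lcn2 at 4.94 without ischemia replicate 1 and 6.71 without sham replicate 2.

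**Figure D4:**
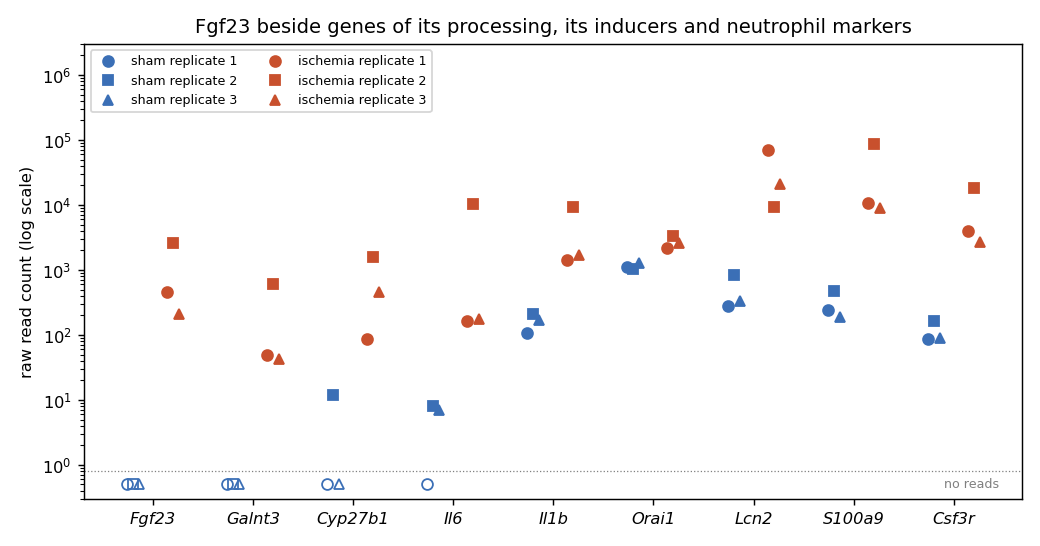
Raw read counts of Fgf23 and of genes of its processing (Galnt3, Cyp27b1), its known inducers (Il6, Il1b, Orai1, Lcn2) and neutrophil markers (S100a9, Csf3r), on a log axis, with blue points for the 3 sham and red points for the 3 ischemia libraries and hollow points for libraries with no reads. Levels are to be compared within a gene only, and ischemia replicate 2 is the highest library for each gene except Lcn2, with Fgf23 at 2560 counts.

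Over the 6 libraries, the genes whose centred log2(CPM + 0.1) profile lay nearest to that of Fgf23 were S100a9, Csf3r, S100a8, Il1rn and Mcemp1, out of 12183 candidates. The root mean square difference from Fgf23 was 0.453 for S100a9 and 0.606 for Mcemp1, on the log2 scale. S100a9 and S100a8 form an alarmin abundant in neutrophils, Csf3r is the receptor that drives neutrophil production and Il1rn is the interleukin 1 receptor antagonist. Galnt3 ranked 59, Fgf2 771 and Fgf1 2055. The likeness is a description of 6 libraries in which Fgf23 is 0 in 3.

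The cell type markers called higher beside Fgf23 were those of neutrophils and of macrophages. All 6 neutrophil markers were called higher in the fit with the filter, beside 5.18% of all tested genes. Retnlg entered that fit only through the ischemia libraries, so this count is partly set by the filter. S100a9 had 5.98, 11.0 and 4.98 FPKM in sham and 242, 2224 and 241 FPKM in ischemia. Its ischemia replicate 2 was at 9.20 times the mean FPKM of the other ischemia libraries. Of 5 macrophage and monocyte markers with an entry, 2 were called higher, and their sum was 27.3 to 49.1 FPKM in sham and 67.5 to 175 FPKM in ischemia. Lymphocyte and NK cell markers summed to 7.57 to 11.4 FPKM in sham and 12.5 to 17.8 FPKM in ischemia (0 of 4 called), and endothelial markers to 109 to 152 and 112 to 150 FPKM (0 of 4). Smooth muscle and pericyte markers summed to 206 to 888 FPKM in sham and 87.5 to 278 FPKM in ischemia (0 of 5), and adipocyte markers to 118 to 510 and 16.5 to 92.1 FPKM (0 of 5). Retnlg was the neutrophil marker at 0 in sham, with 434, 765 and 336 counts in ischemia. The part of these cells in the Fgf23 counts was not tested. Bone cell markers, from the tissue known for Fgf23, summed to 0.228 to 1.40 FPKM in sham and 0.340 to 0.791 FPKM in ischemia, and 6 of the 7 had at most 3 counts in some library, Sp7 having none in any.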

How the data were processed

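RNA was sequenced from 6 rat myocardium libraries prepared with a stranded total RNA kit. Per the labels, the submitters' processing notes name STAR and HTSeq, without versions, and the genome build is not given in the sources used here. The authors deposited raw counts per gene and FPKM values in 1 table. Both were used: for 99.97% of 9998 genes with at least 200 counts, counts and FPKM were related by a single factor per gene within 1% after library scaling.

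Groups were taken from the labels. Genes whose FPKM averaged 0.5 or more were tested on counts with edgeR 4.0.16 (TMM, quasi-likelihood, two-sided, Benjamini-Hochberg over 13964 genes, no covariate), in R 4.3.3. For single genes that passed through 1 group only, the fit without a filter is given as the main value (leave-one-out values keep the filter), a choice made after seeing the data. Shares were tested by exact permutation. DESeq2 1.42.0, limma 3.58.1 on log2(FPKM + 0.1), other scalings and filters, a replicate block and leaving out each library were alternatives. The code was tested on simulated data. The members and lists were chosen with earlier results of these data known. Beside the members, the genes named were, per list, up to 4 with the largest fold change past the threshold or the 2 with the smallest p, the highest markers and those at 0, the nearest profiles (those of Fgfr2 are not reported here) and the neighbours of Fgf23. The floor covers counting error only, while the SDs and SEs carry the spread between these libraries. Same-numbered libraries had deviations from the group means correlated at -0.056, -0.094 and -0.196.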

Additional observations from a re-analysis of the deposited data

How the results depend on the processing

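The calls depended on the tool and on single libraries. Genes called higher numbered 723 and lower 214 with edgeR, 2071 and 1742 with DESeq2, and 0 and 0 with the replicate block, where 3349 had an unadjusted p under 0.05. Whether the replicate numbers pair the libraries is not given in the sources used here. The correlations of same-numbered libraries given above come from too few libraries to settle it. Scaling to total counts left 83 lower and no filter 93, and the study's rule of a log2 fold change beyond 2 at p under 0.01 gave 462 higher. Leaving out each library gave 0 to 1490 higher and 0 to 1115 lower. Of the calls 77.2% were higher with TMM, 86.0% with total counts and 54.3% with DESeq2.

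DESeq2 called 2 members other than Fgf23, 1 other ligand, 1 homologous factor, 1 co-receptor, 7 signalling genes, 7 feedback and target genes, 7 heparan sulfate genes, 3 Fgf23 processing genes, 5 inducers and 5 Fgf21 regulators. The replicate block called 0 feedback genes, 0 heparan sulfate genes and 0 inducers. A mean FPKM of at least 5 left 2 feedback genes called. Limma called 1 co-receptor with a pseudocount of 0.1 and 1 processing gene with 0.1 or 0.01, and the study's rule called 2 processing genes, both of which passed the filter only through the ischemia libraries. Leaving out each library gave 0 to 2 members other than Fgf23, 0 to 1 other ligands, 0 to 1 co-receptors, 0 to 2 signalling genes, 0 to 7 feedback genes, 0 to 5 heparan sulfate genes, 0 to 5 processing genes, 0 to 6 inducers and 0 to 2 Fgf21 regulators. Without ischemia replicate 1 the 2 members called were Fgf1 and Fgf2, the latter past the filter only through ischemia.

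The direction turned for Fgf7 (-0.23 without sham replicate 1, -0.16 without ischemia replicate 1), Fgf16 (0.32 without sham replicate 2), Fgf9 (0.29 without sham replicate 2), Fgfr1 (-0.21 without ischemia replicate 2), Fgfr3 (-0.11 without ischemia replicate 1) and Fgfr4 (0.040 without ischemia replicate 2). Over the fits leaving out a library the highest or lowest value on the other side was 0.54 for Fgf7, -1.95 for Fgf16, -1.22 for Fgf9, 0.33 for Fgfr1, 0.55 for Fgfr3 and -1.55 for Fgfr4. The Fgfr1 share difference ran from -1.92 without ischemia replicate 2 to 5.10 without ischemia replicate 1. Fewer libraries enter the fits that leave one out, and the cause of the other changes was not tested. Of 437 tested alternatives over 28 named genes (Fgf23 and Galnt3 left out), 49 lost the call, 20 gained it, 7 turned and 361 did none of these, many of them being genes not called in the first place. Fgf21 and Kl had few or no counts in every library, so little can be said of a change in either.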

Other observations

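The nearest profiles of other members, by the same measure, were Map2k4 and Dot1l for Fgf1, Aloxe3 and Fdx1 for Fgf2, Scarna2 and Pnpla2 for Fgf7, and Tmem116 and Scn4b for Fgf16. For the receptors they were Abhd5 and Mfap3 for Fgfr1, Spryd7 and Epb41l4b for Fgfr3, and Ankrd34a and Atp1b2 for Fgfr4. The closest of these was Abhd5, a co-activator of fat breakdown, at a root mean square difference of 0.062 from Fgfr1 on the log2 scale. It had 2825, 2072 and 3082 counts in sham and 2338, 5018 and 2312 in ischemia. Map2k4, a kinase that activates JNK, lay 0.148 from Fgf1, with 945, 822 and 812 counts in sham and 853, 2172 and 1719 in ischemia.

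Small counts in the table were uneven. Of 21344 values from 1 to 40, 32.7% were multiples of 4, where 25% would be even, and the value 4 occurred 2515 times against 990 times for 3 and 610 times for 5. A gap from 0 counts to 100 or more between libraries of one group occurred in 186 tested genes, and 0 of them were members.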
